A study of Mus musculus with 6 samples.

Results

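Nuclear receptors are transcription factors that bind DNA through a zinc finger domain and, in many cases, change their activity when a small lipophilic ligand occupies another domain. The family includes receptors for steroids, thyroid hormone, retinoids, vitamin D and lipids, and orphan members for which no physiological ligand is established. In the testis they act in Sertoli, Leydig and peritubular cells, and a few orphan members, Nr2c1, Nr2c2 and Nr6a1, are known as germ cell receptors. The genes described here are 47 nuclear receptor genes, listed by symbol as members of the family, among 55487 gene identifiers in a table of read counts. All 47 were found in the table, and 37 of them had enough reads to be tested.

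The counts come from polyadenylated RNA of whole testes taken at postnatal day 19, when the first wave of spermatogenesis has reached pachytene spermatocytes. Testes of 3 mice form the group labelled control, whose genotype is not described further. Testes of another 3 mice form the group labelled dsfb, which according to the title of the series carry SFB alleles of both Hormad1 and Hormad2, genes of the meiotic chromosome axis. The labels call the mice different animals, so n = 3 per group counts animals, and they state no strain and no treatment. In bulk tissue fewer cells of a type and less RNA per cell cannot be told apart, and this holds for every comparison here.

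Depth was 23983373 to 27707291 counted reads in the control and 15335130 to 17306363 in the dsfb libraries. Hormad1 was at 209 to 486 CPM (read counts normalised to library size with edgeR's TMM factors) in control and 217 to 246 CPM in dsfb (log2 fold change -0.69, edgeR adjusted p = 0.0597), and Hormad2 at 42.9 to 60.0 and 25.1 to 28.7 CPM (-0.96, edgeR adjusted p = 0.000757). Over all 19826 genes that passed edgeR's filter on low counts, 30.7% rose and 36.2% fell at an adjusted p under 0.05, 66.9% together, so a call in itself is common in these data. The median log2 fold change over all genes was 0.02. Upper-quartile scaling moved it up by 0.28 and library size as the only scaling by 0.40, and of all calls 45.9% were higher with TMM, 57.2% with upper-quartile scaling and 60.9% with library size only. Control replicate 3 stood apart from the other controls: the summed level of 12 spermatid markers was 1408 CPM there and 534 and 595 CPM in replicates 1 and 2, and that of 7 early meiotic prophase markers, Hormad1 among them, 847 CPM against 1755 and 1864 CPM. Its Hormad1 level, 209 CPM, lay below all dsfb libraries.

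Of the 37 tested receptor genes 20 rose and 4 fell in dsfb, 54.1% and 10.8% of them, beside 30.7% and 36.2% of all tested genes (66.9% in either direction). The median log2 fold change of the tested receptors was 0.69. Every dsfb library lay above every control library for 23 receptors and below it for 4, beside 36.2% and 38.5% of all tested genes. Without control replicate 3, 28 receptors rose and 4 fell, beside 6596 and 7621 of all 19850 genes tested there. With library size as the only scaling 30 receptors rose and 3 fell, beside 8936 and 5732 of all 19826 tested genes. With TMM and all libraries 6080 of all genes rose and 7176 fell. With library size only the rises over all genes became more common and the falls less common. Without control replicate 3 both counts over all genes were higher. The number of risen receptors thus depended on that library and on the scaling. The receptors that fell were Nr2c1, Nr2c2, Nr6a1 and Esrra. Those that rose had log2 changes from 0.56 to 2.61. They included genes of the steroid, thyroid hormone, retinoid and vitamin D classes, Nr5a1, Nr0b1 and Nr0b2, and 2 of 7 tested genes of the lipid class. The plot of fold changes by class shows both groups.

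**Figure D1:**
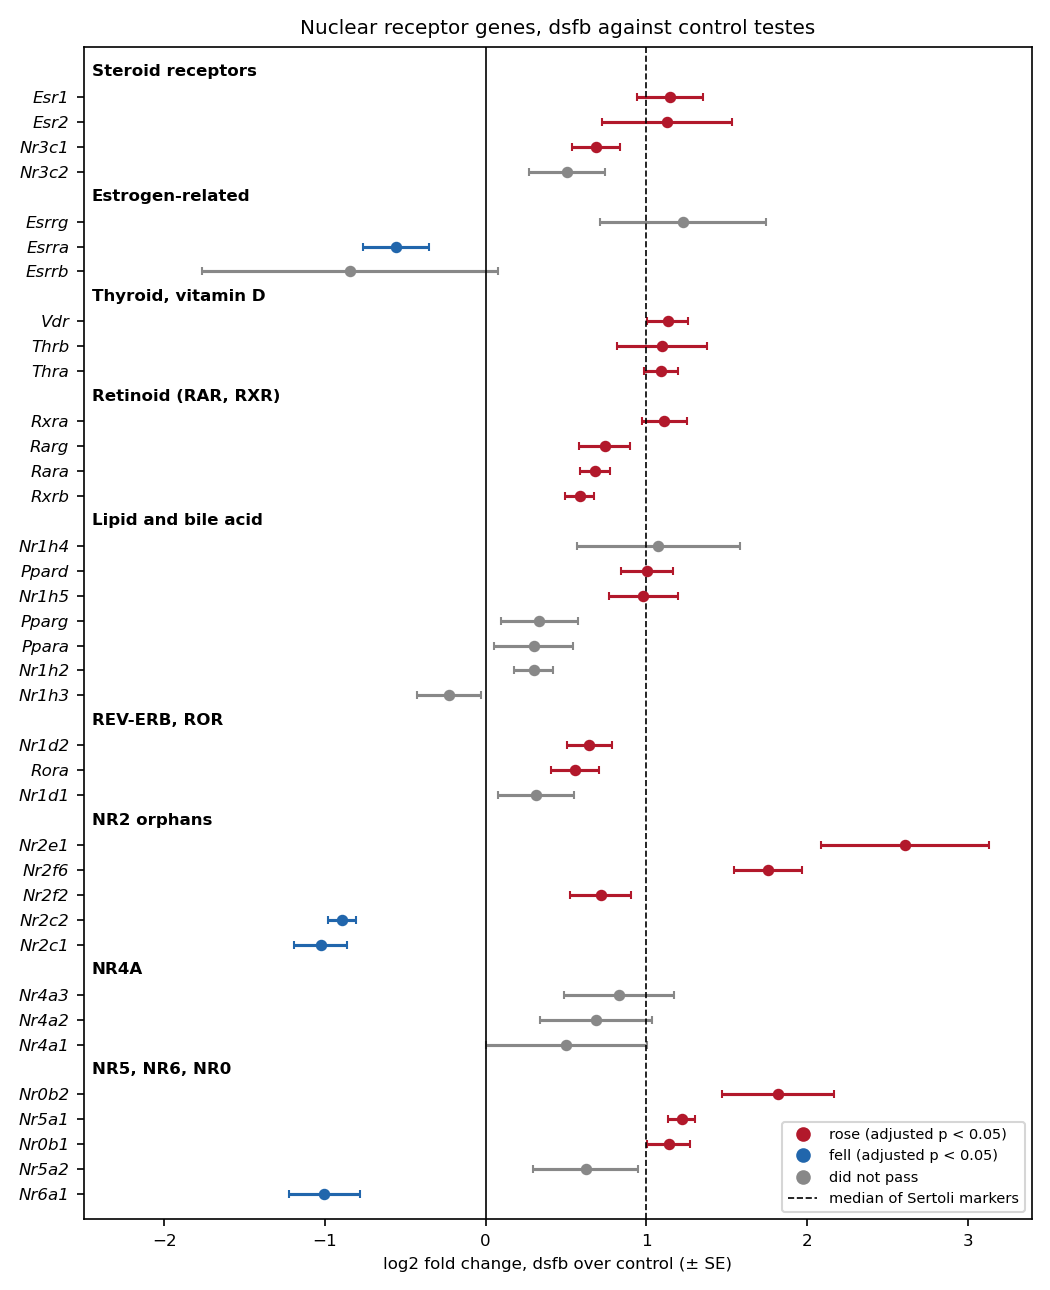
Log2 fold change of the 37 tested nuclear receptor genes, dsfb over control (x axis, with the standard error as bars, n = 3 per group), ordered by receptor class. Red genes rose (20), blue genes fell (4) and grey genes did not pass the test (13); the dashed line is the median of 15 Sertoli cell markers (1.0).

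Nr2c1 and Nr2c2 encode TR2 and TR4, orphan receptors that bind direct repeats of the AGGTCA element. Nr2c1 (chromosome 10, 94148023 to 94197211, plus strand; all positions are GRCm38) had 32.6, 36.3 and 43.3 CPM in control replicates 1, 2 and 3 and, in the same order of replicates, 18.4, 15.6 and 21 CPM in dsfb. It fell 2.04-fold (log2 -1.03, SE 0.16, edgeR adjusted p = 0.00103), and every dsfb library was below every control. Nr2c2 (chromosome 6, 92091390 to 92174294, plus strand) had levels of 131, 132 and 134 CPM in control and at 64.8, 73.8 and 75.4 CPM in dsfb. The controls lay within 3 CPM of each other, and the gene fell 1.86-fold (log2 -0.89, SE 0.09, edgeR adjusted p = 8.16e-05). The exons of Nr2c2 share 30.7% of their length with Mrps25 on the opposite strand, and whether reads were counted by strand is not given here. Mrps25 itself was at 17.8 CPM in control and 17.9 CPM in dsfb.

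Nr6a1 encodes the germ cell nuclear factor GCNF, a repressor that also binds AGGTCA repeats. The gene (chromosome 2, 38723370 to 38927688, minus strand) was at 94.1, 99.7 and 171 CPM in control and at 59.3, 61.2 and 61.1 CPM in dsfb. Control replicate 3, the library with the most spermatid transcript, was the highest, and the dsfb libraries lay close together below all controls. Nr6a1 fell 2.01-fold (log2 -1.0, SE 0.22, edgeR adjusted p = 0.00476), or by 0.71 on the log2 scale without control replicate 3. Esrra, which encodes the estrogen-related receptor ERRα, a regulator of mitochondrial genes, was at 28.0, 31.0 and 46.4 CPM in control and at 25.1, 21.2 and 25.3 CPM in dsfb. Its fall was the smallest (log2 -0.56, SE 0.20, edgeR adjusted p = 0.0413), and without control replicate 3 it was -0.34 (edgeR adjusted p = 0.0144). The call of Esrra was lost under 7 of 15 alternatives: upper-quartile scaling (-0.28), library size only (-0.15), TMM on autosomal genes (adjusted p = 0.0538), limma-voom (adjusted p = 0.0543) and the edgeR fits without dsfb replicate 1, 2 or 3 (adjusted p = 0.0873, 0.137 and 0.0864). Nr2c1, Nr2c2 and Nr6a1 passed under all 15. Beside these falls, all 9 tested markers of pachytene spermatocytes fell, against 36.2% of all tested genes. The median log2 change of these markers was -7.83, so the receptor falls were small on the scale of that list. The part of cell composition in the receptor falls was not tested.

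Promoter windows (250 bases before to 50 after a RefSeq transcript start, GRCm38.p6) were at hand for 43 of the 47 genes. They are shown for the orphan receptors that fell together, because the short element TGACG, which is part of the cyclic AMP response element, was in the window of Nr2c1, Nr2c2 and Nr6a1, and for Nr0b1, which holds the receptors' own element AGGTCA. Each is written 5′ to 3′ on the strand of the gene, and capitals mark the element on either strand (CGTCA is TGACG on the other strand).
Nr6a1, chr2:38926412-38926711, minus strand: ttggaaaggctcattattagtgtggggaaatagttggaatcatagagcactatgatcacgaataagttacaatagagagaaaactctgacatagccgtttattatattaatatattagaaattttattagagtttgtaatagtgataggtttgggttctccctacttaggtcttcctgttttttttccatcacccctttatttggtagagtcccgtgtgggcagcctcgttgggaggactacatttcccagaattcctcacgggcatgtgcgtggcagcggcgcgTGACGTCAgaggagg
Nr2c1, chr10:94147681-94147980, plus strand: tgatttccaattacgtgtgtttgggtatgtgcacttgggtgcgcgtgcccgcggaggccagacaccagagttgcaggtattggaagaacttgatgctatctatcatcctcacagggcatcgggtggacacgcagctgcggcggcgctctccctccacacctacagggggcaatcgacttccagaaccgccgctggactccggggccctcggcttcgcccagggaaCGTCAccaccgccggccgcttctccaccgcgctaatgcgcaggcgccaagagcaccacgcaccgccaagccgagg
Nr2c2, chr6:92092183-92092482, plus strand: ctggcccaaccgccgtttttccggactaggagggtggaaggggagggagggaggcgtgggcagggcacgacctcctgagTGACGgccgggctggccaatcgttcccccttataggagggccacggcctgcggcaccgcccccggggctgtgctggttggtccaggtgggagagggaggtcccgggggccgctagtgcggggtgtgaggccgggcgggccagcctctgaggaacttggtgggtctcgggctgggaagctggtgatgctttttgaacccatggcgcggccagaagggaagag
Nr0b1, chrX:86191525-86191824, plus strand: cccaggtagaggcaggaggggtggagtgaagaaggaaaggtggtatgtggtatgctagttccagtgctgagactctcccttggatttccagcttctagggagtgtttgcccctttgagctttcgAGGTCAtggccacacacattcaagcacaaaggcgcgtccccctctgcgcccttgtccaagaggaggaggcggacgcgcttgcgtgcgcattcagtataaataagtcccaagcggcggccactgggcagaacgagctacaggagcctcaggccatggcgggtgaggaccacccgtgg

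The element lay 171 bases before the transcript start in Nr2c2, 25 bases before it in Nr2c1 and from base 36 after it in Nr6a1, where TGACG on both strands forms the palindrome TGACGTCA. Counted over genes, with any window of a gene sufficient, TGACG on either strand was in 3 of the 4 receptors that fell, in 6 of 17 that rose, in 6 of 13 that did not pass, in 0 of 9 that were not tested and in 23.0% of the 27025 genes with a window (20.8% of windows). The full TGACGTCA, which contains TGACG, was in 1.79% of all windows and, among the receptors, in Nr6a1, which fell, and Nr2e1, which rose. AGGTCA was in 1 of 4 receptors that fell (the other window of Nr6a1), in 6 of 17 that rose, in 3 of 13 that did not pass, in 1 of 9 that were not tested and in 18.1% of all genes. In Nr0b1 it began 126 bases before the start. CACGTG, also searched, was in 0 of 4 receptors that fell, in 4 of 17 that rose, in 0 of 13 that did not pass, in 1 of 9 that were not tested and in 8.09% of all genes. The windows printed above were chosen from such matches. All are matches of letters and not measured binding sites.

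Nr5a1 encodes SF1, the receptor that drives steroidogenic and Sertoli cell genes, and Nr0b1 encodes DAX1, a repressor of SF1 that lacks the zinc finger domain. Nr5a1 (chromosome 2, 38692656 to 38714542, minus strand) was at 82.6, 72.7 and 73.2 CPM in control and at 184, 171 and 177 CPM in dsfb, and rose 2.33-fold (log2 1.22, SE 0.09, edgeR adjusted p = 1.64e-05). Nr0b1 (chromosome X, 86191764 to 86195947, plus strand) had levels of 53.9, 50.7 and 40.1 CPM in control and at 116, 107 and 95.7 CPM in dsfb, and rose 2.20-fold (log2 1.14, SE 0.13, edgeR adjusted p = 0.000211). In both genes the groups were far apart, and the change held under all scalings. Nr0b1 is X-linked, and the 766 tested X-linked genes had a median log2 change of 1.03 against -0.03 over the autosomes. Nr0b2, which encodes the related repressor SHP, was at 0.558, 0.330 and 0.371 CPM in control and at 1.63, 1.66 and 1.19 CPM in dsfb (log2 1.82, SE 0.35, edgeR adjusted p = 0.00255), a rise that rests on 28 and 83 reads in all. Nr5a2, which encodes the SF1 relative LRH1, was at 1.11 to 2.23 CPM in control and 1.94 to 2.74 CPM in dsfb and did not pass (log2 0.62, SE 0.33, edgeR adjusted p = 0.126).

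Ratios of counts within a library do not depend on how libraries are scaled. Nr5a1 and Nr6a1 lie within 10 kb of each other on chromosome 2 and were chosen, like the other pairs here, after their values were seen. Their ratio was 0.878, 0.729 and 0.429 in control replicates 1, 2 and 3 and 3.11, 2.79 and 2.89 in dsfb, a log2 difference of 2.17. The groups did not overlap, with p = 0.1 in an exact permutation test (two-sided, 0.3 adjusted over 3 pairs), which is the lowest p possible for 3 against 3 libraries. The ratio of Nr0b1 to Nr5a1 was 0.653, 0.697 and 0.547 in control and 0.629, 0.627 and 0.541 in dsfb, and that of Nr2c1 to Nr2c2 was 0.248, 0.275 and 0.323 and 0.284, 0.212 and 0.278. In both pairs the groups overlapped, with log2 differences of -0.07 (exact permutation p = 0.5) and -0.13 (exact permutation p = 0.6).

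**Figure D2:**
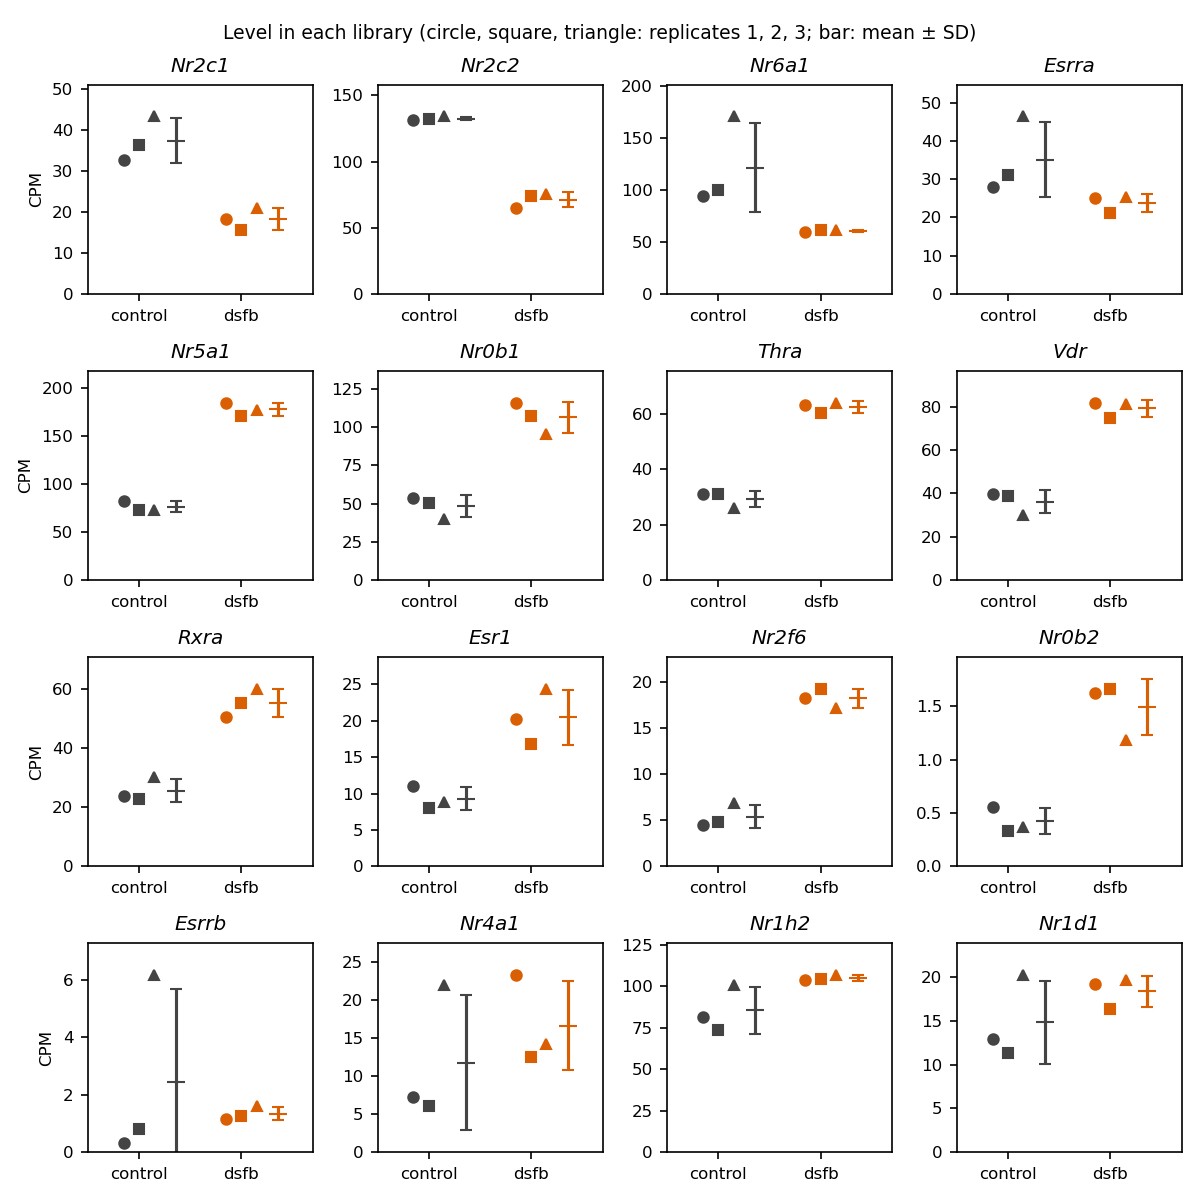
CPM (y axis, from 0) of 16 nuclear receptor genes in each of the 3 control and 3 dsfb libraries, with the mean and SD of each group beside the points; the lower bar of Esrrb in control is cut at 0. Control replicate 3 (triangle) lies above the other controls in Nr2c1, Nr2c2, Nr6a1, Esrra, Esrrb, Nr4a1, Nr1d1, Nr1h2, Nr2f6 and Rxra. In Nr5a1, Thra, Vdr and Rxra all dsfb libraries lie above all controls.

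Of the steroid receptors 3 of 4 tested rose, beside 30.7% of all tested genes. Esr1, the estrogen receptor α of Leydig and peritubular cells, was at 11.0, 7.97 and 8.81 CPM in control and at 20.3, 16.9 and 24.4 CPM in dsfb, a 2.21-fold rise (log2 1.15, SE 0.21, edgeR adjusted p = 0.00181). Nr3c1, the glucocorticoid receptor, was at 39.7, 39.1 and 27.7 CPM in control and at 59.4, 57.1 and 55.3 CPM in dsfb, a 1.61-fold rise (log2 0.69, SE 0.15, edgeR adjusted p = 0.00447). In both genes every dsfb library was above every control, as in 36.2% of all tested genes. Esr2, the estrogen receptor β, was at 0.977, 1.28 and 0.788 CPM in control and at 2.13, 1.26 and 3.29 CPM in dsfb, so that dsfb replicate 2 lay within the controls. Its rise (log2 1.13, SE 0.40, edgeR adjusted p = 0.0379) was lost under 9 of 15 alternatives, among them DESeq2 (adjusted p = 0.0657), limma-voom (adjusted p = 0.0588) and the fit without dsfb replicate 3 (log2 0.75, edgeR adjusted p = 0.147). Nr3c2, the mineralocorticoid receptor, ranged from 4.98 to 7.19 CPM in control and from 7.06 to 10.3 CPM in dsfb (log2 0.51, SE 0.24, edgeR adjusted p = 0.0897), and passed without control replicate 3 (log2 0.63, edgeR adjusted p = 0.00842), while without control replicate 1 or dsfb replicate 3 the change was 0.35 or 0.36. With upper-quartile scaling and library size only its edgeR adjusted p was 0.0174 and 0.00856, and with RLE scaling and TMM on autosomal genes 0.163 and 0.0670.

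The estrogen-related receptors have no known steroid ligand and did not move as a class. Besides Esrra, which fell, Esrrb was at 0.326, 0.826 and 6.17 CPM in control and at 1.17, 1.26 and 1.62 CPM in dsfb. Its highest value was that of control replicate 3. With that library its log2 change was -0.85 (SE 0.92, edgeR adjusted p = 0.438), and without it the direction turned to 1.17 (edgeR adjusted p = 0.0293). Esrrg stayed at or below 1.24 CPM in each library (log2 1.23, SE 0.52, edgeR adjusted p = 0.0680). It passed without control replicate 3 (edgeR adjusted p = 0.0199), while without control replicate 2 the change was 0.81. With upper-quartile scaling and library size only its edgeR adjusted p was 0.0303 and 0.0217, and with RLE scaling and TMM on autosomal genes 0.0880 and 0.0595.

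The thyroid hormone receptors and the vitamin D receptor all rose, beside 30.7% of all tested genes. In each of these receptor genes every dsfb library was above every control, beside 36.2% of all tested genes. Thra (chromosome 11, 98740638 to 98769006, plus strand), the main thyroid hormone receptor gene of immature Sertoli cells, was at 30.9, 31.1 and 26.0 CPM in control and at 63.2, 60.0 and 63.9 CPM in dsfb (log2 1.09, SE 0.11, edgeR adjusted p = 8.34e-05). Vdr (chromosome 15, 97854425 to 97910630, minus strand) was at 39.9, 38.6 and 30.0 CPM in control and at 81.9, 74.8 and 81.1 CPM in dsfb (log2 1.13, SE 0.13, edgeR adjusted p = 0.000164). Both were a little over 2-fold higher, with a narrow spread in each group. Thrb was lower in level, at 1.65 to 2.97 CPM in control and 4.57 to 6.05 CPM in dsfb (log2 1.10, SE 0.28, edgeR adjusted p = 0.00964). The last exons of Thra and Nr1d1 overlap on opposite strands over 263 bases, 5.70% of the exons of Thra and 8.55% of those of Nr1d1.

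All 4 tested retinoid receptor genes rose, beside 30.7% of all tested genes. Retinoic acid receptors (RAR) bind DNA with a retinoid X receptor (RXR) as partner, and RXR also pairs with thyroid hormone, vitamin D and lipid receptors. Rxra was at 23.9, 22.8 and 30.2 CPM in control and at 50.6, 55.3 and 60.1 CPM in dsfb, the largest change of the class (log2 1.11, SE 0.14, edgeR adjusted p = 0.000299). Rara, the receptor known for its role in Sertoli cells, was at 49.5, 44.0 and 49.0 CPM in control and at 79.0, 71.4 and 78.2 CPM in dsfb (log2 0.68, SE 0.09, edgeR adjusted p = 0.000456). Rxrb was at 57.4, 60.1 and 63.6 CPM in control and at 97.0, 89.2 and 85.6 CPM in dsfb (log2 0.59, SE 0.09, edgeR adjusted p = 0.000802). Rarg, the isotype of spermatogonia, was at 10.6 to 11.8 CPM in control and 16.9 to 21.5 CPM in dsfb (log2 0.74, SE 0.16, edgeR adjusted p = 0.00422). In all 4 genes each dsfb library was above each control library, beside 36.2% of all tested genes.

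Among receptors of fatty acids, oxysterols, bile acids and foreign compounds 2 of 7 tested genes rose, or 28.6%, close to the 30.7% of all tested genes. Ppard, the PPAR with the widest expression, was at 10.2, 9.04 and 7.88 CPM in control and at 18.5, 17.6 and 18.4 CPM in dsfb (log2 1.01, SE 0.16, edgeR adjusted p = 0.00109). Nr1h5, which encodes FXRβ, a receptor of lanosterol, was at 3.26, 3.59 and 2.64 CPM in control and at 6.86, 5.97 and 5.94 CPM in dsfb (log2 0.98, SE 0.22, edgeR adjusted p = 0.00477). In both genes every dsfb library was above every control, as in 36.2% of all tested genes. Nr1h2, which encodes the oxysterol receptor LXRβ, was at 81.7, 73.9 and 101 CPM in control and at 104, 105 and 107 CPM in dsfb. It did not pass with TMM and all libraries (log2 0.30, SE 0.12, edgeR adjusted p = 0.0594). It passed without control replicate 3 (log2 0.41, edgeR adjusted p = 0.000172) and with the replicate block (edgeR adjusted p = 0.0358), while without control replicate 1 or 2 the change was 0.22 or 0.19. Its call also turned on scaling, with edgeR adjusted p = 0.0338 with TMM on autosomal genes, 0.00287 with upper-quartile scaling, 0.00089 with library size only and 0.191 with RLE scaling. Nr1h3, which encodes LXRα, was at 9.82 to 11.3 CPM in control and 7.83 to 11.2 CPM in dsfb (log2 -0.23, SE 0.20, edgeR adjusted p = 0.338), with a sign that turned positive under upper-quartile scaling and library size only. Ppara (log2 0.30, SE 0.24), Pparg (0.33, SE 0.24) and the bile acid receptor gene Nr1h4 (1.07, SE 0.51) overlapped between the groups and did not pass. Nr1h4 passed under 4 of 15 alternatives, the replicate block (edgeR adjusted p = 0.0468) among them. That these genes missed the threshold does not show equal levels.

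The REV-ERB receptors repress and the ROR receptors activate genes of the circadian clock through the same DNA element. Nr1d2, which encodes REV-ERBβ, was at 85.8, 89.2 and 62.2 CPM in control and at 126, 127 and 119 CPM in dsfb (log2 0.65, SE 0.14, edgeR adjusted p = 0.00437). Nr1d1, which encodes REV-ERBα, was at 12.9, 11.3 and 20.2 CPM in control and at 19.1, 16.4 and 19.6 CPM in dsfb (log2 0.31, SE 0.24, edgeR adjusted p = 0.270). Here control replicate 3 lay above all dsfb libraries, and without it Nr1d1 passed (log2 0.58, edgeR adjusted p = 0.000966), while without control replicate 1 or 2 the change was 0.18 or 0.14. With upper-quartile scaling and library size only the edgeR adjusted p of Nr1d1 was 0.0478 and 0.0206, and with RLE scaling and TMM on autosomal genes 0.453 and 0.205. Rora was at 14.8 to 18.3 CPM in control and 22.4 to 26.7 CPM in dsfb (log2 0.56, SE 0.15, edgeR adjusted p = 0.0117), and without dsfb replicate 1 it did not pass (log2 0.52, edgeR adjusted p = 0.0546). The time of day of tissue collection is not in the labels.

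The other tested NR2 genes rose, beside 30.7% of all tested genes. Nr2f2, which encodes COUP-TFII, a factor of Leydig cell precursors and stroma, was at 32.3, 21.8 and 19.8 CPM in control and at 38.9, 40.1 and 42.2 CPM in dsfb (log2 0.71, SE 0.19, edgeR adjusted p = 0.0111). Nr2f6, its relative EAR2, was at 4.51, 4.79 and 6.86 CPM in control and at 18.2, 19.2 and 17.1 CPM in dsfb, a 3.37-fold rise (log2 1.75, SE 0.21, edgeR adjusted p = 0.000243). The exons of Nr2f6 share 54.4% of their length with Ocel1 on the opposite strand, and Ocel1 went the other way, from a mean of 46.7 to 18.6 CPM (log2 -1.33, edgeR adjusted p = 0.000240), so the level of Nr2f6 is uncertain. Nr2e1, which encodes TLX, a factor of neural stem cells, had the largest log2 change of the tested receptors (2.61, SE 0.52, edgeR adjusted p = 0.00316) at a low level, 0.0464 to 0.248 CPM in control and 0.965 to 1.40 CPM in dsfb.

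The NR4A receptors are orphan genes that respond within minutes to signalling, as immediate early genes do. None of the 3 passed edgeR with TMM, all libraries and no block, beside 66.9% of all tested genes that did. Of the 3 receptors 1 had an unadjusted p under 0.05, and 1 passed with limma-voom and 0 with DESeq2. Nr4a1 was at 7.26, 6.07 and 22.1 CPM in control and at 23.4, 12.5 and 14.2 CPM in dsfb. Control replicate 3 and dsfb replicate 1 were the high libraries of their groups, and without control replicate 3 the log2 change went from 0.50 (SE 0.50, edgeR adjusted p = 0.400) to 1.30 (edgeR adjusted p = 1.03e-05). It was 0.20 without control replicate 1, 0.18 without control replicate 2 and 0.19 without dsfb replicate 1, so its size rests on single libraries in both directions. Nr4a3 was at 1.28 to 2.92 CPM in control and 3.4 to 4.62 CPM in dsfb (log2 0.83, SE 0.34, edgeR adjusted p = 0.0623) and passed without control replicate 3 (edgeR adjusted p = 0.00494) and with the replicate block (edgeR adjusted p = 0.0474), while without control replicate 2 the change was 0.52. With upper-quartile scaling and library size only its edgeR adjusted p was 0.0187 and 0.0119, and with RLE scaling and TMM on autosomal genes 0.0912 and 0.0513. Nr4a2 stayed below 1.3 CPM (log2 0.69, SE 0.35, edgeR adjusted p = 0.117). Under those same 4 scalings, in the same order, the edgeR adjusted p of Nr4a2 was 0.0392, 0.0272, 0.157 and 0.0986. Beside them, 8 of 11 immediate early genes rose (median log2 change 1.28), against 30.7% of all tested genes. The log2 changes were 1.54 for Egr1, 1.66 for Btg2, 1.28 for Junb and 1.23 for Zfp36.

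The 10 genes that were not tested had few reads. Nr1i2, which encodes the xenobiotic receptor PXR, had 7, 13 and 27 reads in control and 4, 0 and 3 in dsfb, and passed as lower only when no filter was applied (log2 -2.5, SE 0.86, edgeR adjusted p = 0.0367). Hnf4a had 1, 8 and 7 reads in control and 0, 0 and 2 in dsfb. Rarb had 1 read in control and 10 in dsfb, Nr2f1 7 and 19, Rorb 7 and 13, Nr2e3 6 and 9, Rxrg 3 and 5, Nr1i3 3 and 2 and Pgr, the progesterone receptor gene, 3 and 4 over the 3 libraries of each group. On the opposite strand Rarb shares 34.1% of its exon length with Top2b (162 CPM in control, 247 CPM in dsfb) and Nr1i3 74.9% with Tomm40l. Whether reads were counted by strand is not given, so the reads of Rarb and Nr1i3 are uncertain. Hnf4g had 0 reads in all 6 libraries, which allows up to 0.0243 CPM over the 6 libraries together if 3 reads are taken as the limit of a count of 0, with counting error only. At this depth no difference was detectable in these genes other than Nr1i2.

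Levels can be compared between genes only per length, so CPM were divided by the kilobases of annotated exon. On this scale Nr0b1 (26.7 in control), Nr1h2 (25.5), Nr5a1 (18.0), Rxrb (15.2) and Nr1d2 (14.6) were the most abundant receptor transcripts of the control testes, followed by Nr6a1 (11.2), Rara (10.9), Nr2c2 (8.87), Nr2c1 (8.11) and Esrra (8.0). The control libraries of Nr0b1 and Nr1h2 overlapped, as did those of Rxrb and Nr1d2, so neither pair has a clear order. The place of Nr6a1 rests on control replicate 3, with 8.69, 9.21 and 15.8 CPM per kilobase in replicates 1, 2 and 3, and its libraries overlapped those of Rara, Nr2c2, Nr2c1 and Esrra. In dsfb Nr0b1 (58.8), Nr5a1 (41.8), Nr1h2 (31.3), Nr1d2 (22.9) and Rxrb (22.8) led the list. Among the 47 genes Nr6a1 went from rank 6 to 13, Nr2c2 from 8 to 15 and Nr2c1 from 9 to 19, while Vdr went from 11 to 7 and Thra from 12 to 8. Nr6a1 and Rara, next to each other in control, were at 5.59 and 17.5 CPM per kilobase in dsfb. The plot of levels per length shows the fallen orphan receptors passing below Vdr, Thra, Rxra and Nr3c1.

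**Figure D3:**
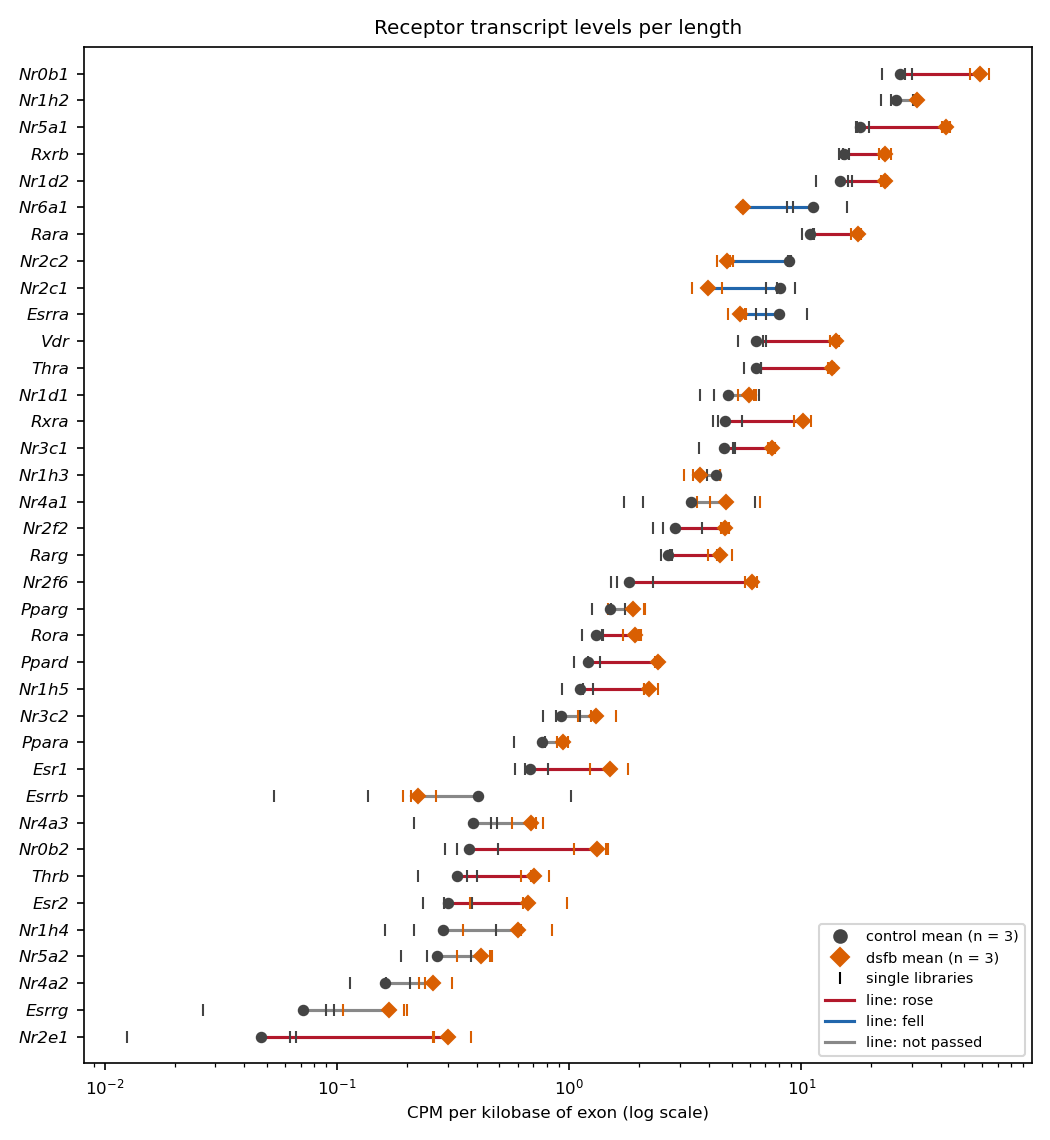
Level of the 37 tested nuclear receptor genes in CPM per kilobase of annotated exon (x axis, log scale), ordered by the control mean. Circles and diamonds are the control and dsfb means (n = 3 each), ticks are single libraries, and line colour gives the edgeR call; the blue lines of Nr6a1, Nr2c2, Nr2c1 and Esrra point to lower levels.

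Coregulators connect the receptors to chromatin, and their genes moved both ways. So did all tested genes, of which 30.7% rose and 36.2% fell. Of 14 coactivator genes 6 rose and 3 fell (median log2 change 0.11), with Kat2b (0.93) and the p160 coactivator Ncoa2 (0.72) higher and the Mediator subunit Med1 (-0.77) and Ncoa6 (-0.49) lower. Of 10 corepressor genes 5 rose and 3 fell (median 0.21). Subunits of a corepressor complex changed in opposite directions. Gps2 fell from 130 ± 19.7 to 37.5 ± 4.27 CPM (SD, n = 3; log2 -1.79, SE 0.14, edgeR adjusted p = 2.62e-05) and Tbl1xr1 from 94.3 ± 1.99 to 43.8 ± 4.22 CPM (log2 -1.10), while its X-linked paralog Tbl1x rose from 69.6 ± 8.10 to 142 ± 7.53 CPM (log2 1.03). Of 8 chaperone genes that hold steroid receptors ready for ligand 6 fell and 1 rose (median -0.78). Hsp90aa1, the HSP90 isoform known from germ cells, fell (log2 -1.25), as did the phosphatase gene Ppp5c (-1.04), Hspa4 (-0.82) and the cyclophilin gene Ppid (-0.81). The member that rose was Hsp90ab1 (0.54), named after its values were seen. The medians of the coactivators and corepressors lay close to that of all genes.

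Genes that make, carry or break down the ligands, and known targets, had medians above that of all genes except in the estrogen list. Beside the counts below, 30.7% of all tested genes rose and 36.2% fell. In retinoid metabolism and response 11 of 16 tested genes rose and 3 fell (median 0.81). Those that fell were Lrat, which stores retinol as esters, from 16.3 ± 4.08 to 2.65 ± 0.169 CPM (log2 -2.62), the retinol dehydrogenase gene Rdh11 (-2.16) and Aldh1a2, the retinaldehyde dehydrogenase known from spermatocytes, from 201 ± 17.0 to 88.4 ± 7.52 CPM (-1.18, SE 0.10, edgeR adjusted p = 4.34e-05). Cyp26b1, which degrades retinoic acid, rose from 114 ± 21.6 to 251 ± 19 CPM (1.14). In thyroid hormone handling and response 5 of 7 tested genes rose, or 3 without dsfb replicate 1 and with no filter, and the activating deiodinase gene Dio2 fell (log2 -1.71). The targets Hr (0.74) and Klf9 (0.55) were higher. Of 7 tested glucocorticoid genes 5 rose (median 0.90), among them Sgk1 (1.22), X-linked Tsc22d3 (1.19), Fkbp5 (0.90) and Errfi1 (0.62).

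Of 9 LXR targets 8 rose (median 0.95), with Abcg1 (1.49), Scd2 (0.96) and Srebf1 (0.95) named by the rule, and Lpcat3, a lysophospholipid acyltransferase gene, fell from 170 ± 18.6 to 50.3 ± 2.33 CPM (log2 -1.76). Of 14 PPAR targets 8 rose and 2 fell (median 0.88). Over all tested genes 30.7% rose and 36.2% fell, which holds beside each list here. Angptl4 (1.15), Acadm (0.96) and Cpt1a (0.91) rose and Hadha (-0.74) fell. In estrogen synthesis and response 2 of 6 tested genes rose and 3 fell (median 0.0075, with a sign that turned under 6 of 15 alternatives). Cyp19a1, which encodes aromatase, fell from 7.84 ± 1.7 to 0.199 ± 0.0895 CPM (log2 -5.26, SE 0.38, edgeR adjusted p = 1.7e-05). Pgrmc2 fell (-0.78), and X-linked Pgrmc1 (1.25) and the estrogen target Greb1 (0.79) rose. Pgrmc1 and Pgrmc2 encode progesterone receptor membrane components, so the counts and the median of this list are not of estrogen genes alone. Of 15 clock genes 11 rose (median 0.54). Dbp (1.17), Per3 (0.52) and Tef (0.48) were higher, and the repressor gene Cry1 fell from 130 ± 6.12 to 57.0 ± 4.97 CPM (-1.19). Dbp, Lpcat3, Greb1, Hadha, Srebf1, Tef, Dio2, Junb and Zfp36 overlap in part with exons of genes on the other strand.

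Cell type markers moved in the same libraries. Beside the counts below, 30.7% of all tested genes rose and 36.2% fell. Of 15 Sertoli cell markers 14 rose (median 1.0, single genes 0.50 to 1.37), with a summed level of 3111 to 4135 CPM in control and 7254 to 7587 CPM in dsfb. Of the 20 receptors that rose, 17 had a log2 change inside the range of the single Sertoli markers, and Nr2e1, Nr0b2 and Nr2f6 lay above it. The smallest rise of a called receptor was 0.56, above the low end of that range. The share of all risen genes inside the range was not counted, so the 17 do not set the receptors apart from other risen genes. Of 8 interstitial stromal markers 7 rose (median 1.09, 449 to 673 against 1190 to 1271 CPM summed). Of 8 peritubular myoid markers 5 rose (0.86), of 8 macrophage markers 6 (0.83, or 3 genes without control replicate 2 or dsfb replicate 3) and of 8 endothelial markers 3 (0.36). Leydig cell markers had a median of 0.56 and a summed level of 254 to 460 CPM in control and 357 to 633 CPM in dsfb. The count of Leydig markers that rose was 4 of 8 and depended on single libraries: 7 without control replicate 3 or with library size as the only scaling, 2 without control replicate 1 or 2 or dsfb replicate 2, and 1 without dsfb replicate 1 or 3. No marker of these 6 lists was at 0 in all libraries. How much of the receptor changes goes with these markers was not tested.

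Among germ cell lists, 6 of 9 spermatogonial markers rose and 2 fell (median 0.72), beside 30.7% and 36.2% of all tested genes. The summed level of these markers was lower, 758 to 970 CPM in control and 401 to 483 CPM in dsfb. Dmrtb1, a factor at the entry to meiosis and the most abundant gene of this list in control, fell from 554 to 45.3 CPM (log2 -3.61), and Id4 fell (-1.52). Of 7 markers of early meiotic prophase 3 rose, and the other 4 had log2 changes from -0.69 to -0.45, all of which passed as lower without control replicate 3. The summed level of the pachytene list was 7277 to 9846 CPM in control and 365 to 389 CPM in dsfb, and that of the spermatid list 534 to 1408 and 40.1 to 49.4 CPM. All 11 tested spermatid markers fell by edgeR, 6 by DESeq2, 4 by limma-voom and 7 without dsfb replicate 3. In a list for epithelium of the rete testis and efferent ducts 3 of 5 tested genes fell, led by Aqp9 (log2 -8.26) and Krt8 (-3.79), while Pax8, which defines these ducts, was at 0.415 ± 0.0419 and 0.689 ± 0.330 CPM. The plot of all lists sets these groups beside the receptors.

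**Figure D4:**
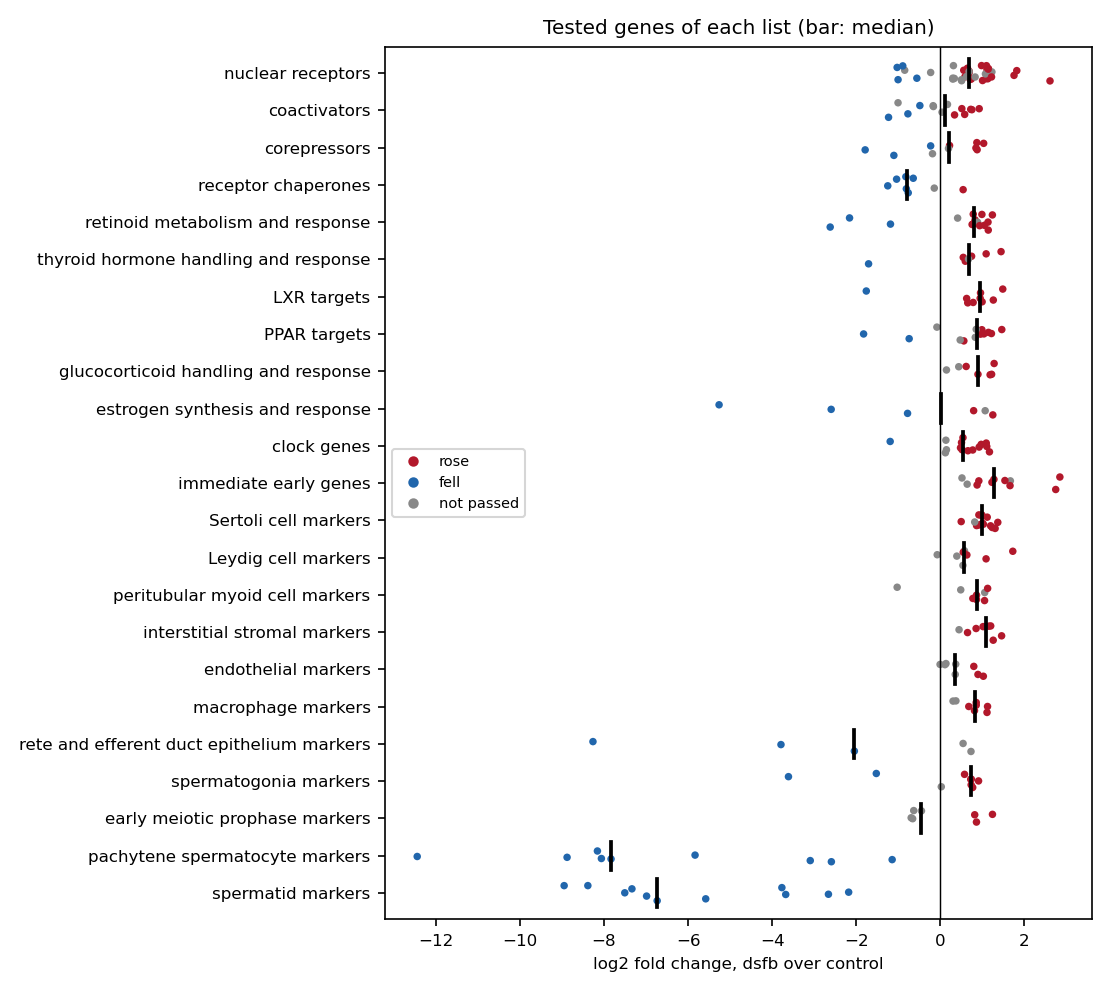
Log2 fold change (x axis, dsfb over control) of each tested gene of the nuclear receptor list, 11 pathway lists and 11 cell type marker lists, coloured by the edgeR call, with the median as a black bar. The receptor median of 0.69 lies between that of all genes (0.02, not drawn) and that of the Sertoli markers (1.0), and the pachytene and spermatid medians lie at -7.83 and -6.74.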

How the data were processed

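Per the labels' protocols, testes were frozen, RNA was taken up in TRIzol and libraries were made with a NEBNext Ultra kit. Per the submitters' processing notes the authors aligned reads to mm10 using STAR 2.6.0. The counter, its gene models and strandedness were not given in the sources used here. The authors deposited raw read counts per gene, 1 column per library. Symbols, positions and exon lengths came from GENCODE M21 (GRCm38), in which 260 of 55487 identifiers were not found. Genes were kept by filterByExpr, scaled by TMM and tested over the whole table with the quasi-likelihood test of edgeR 4.0.16 (R 4.3.3), with group as the only term and Benjamini-Hochberg adjustment over all 19826 tested genes at a threshold of 0.05. Each SE was obtained by dividing the log2 fold change (without sign) by the root of the F statistic. Alternatives were 4 other scalings, 2 other filters, DESeq2 1.42.0 (207 genes without an adjusted p), limma-voom (limma 3.58.1), a replicate block and leaving out each library.

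Receptors and the 22 gene lists were chosen with earlier results of these data known, and lists are described by counts and medians with no set test. Every receptor is accounted for, and of each list up to 4 tested genes with the smallest p are named, apart from a few that are not reported here. P-values of edgeR set the difference between the groups against the variation between animals, with n = 3 per group. The estimate of that variation also draws on other genes.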

Additional observations from a re-analysis of the deposited data

How the results depend on the processing

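Over 15 alternatives the number of receptors that rose was 19 with RLE scaling, DESeq2, no filter beyond 1 read and a mean of at least 1 CPM, 20 with limma-voom, 21 with autosomal TMM, 28 with upper-quartile scaling and 30 with library size only, against 20. Over all genes 8187 rose with upper-quartile scaling and 8936 with library size only, against 6080. The number that fell was 3 to 5, against 4. With 1 library left out, 18 to 28 receptors rose and 3 or 4 fell, and over all genes 4940 to 6596 rose and 6889 to 7621 fell, against 6080 and 7176. The largest receptor count was that without control replicate 3. Of the 24 receptors called, 21 kept the call under each alternative that gave them a value; Esr2, Esrra and Rora lost it in at least 1. The direction turned for Esrrb with limma-voom (0.17) and without control replicate 3 (1.17, over a range of -1.41 to 1.17 with 1 library left out) and for Nr1h3 with upper-quartile scaling (0.048) and library size only (0.17); the cause was not tested. With no filter the median of all genes moved by -0.30, 38003 genes were tested, and 4869 rose and 8839 fell.

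With the replicate number as a block 22 receptors rose and 4 fell, and over all genes 6228 rose and 7203 fell; Esr2 was lost (edgeR adjusted p = 0.0650) and Nr1h2 (0.0358), Nr1h4 (0.0468) and Nr4a3 (0.0474) were gained. Same-numbered libraries correlated in their deviations from the group means at 0.071, 0.061 and 0.12, each best with its own number, which is a hint from the data and not the design, so the numbers were not taken to pair the animals. Depth limits the 10 receptors with few reads, and the dsfb libraries, which are shallower, limit genes low in both groups.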
